A study of Mus musculus with 4 samples.

Results

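The clustered histone genes are the families of near-identical genes that encode the bulk of the histones on which new DNA is packed. They were taken as every gene of the feature list whose symbol starts with Hist1h, Hist2h, Hist3h or Hist4, which gave 67 of 31054 genes. By class, 6 encode the linker histone H1, which binds between nucleosomes, and 18 encode H2A, 18 H2B, 12 H3 and 13 H4, the core histones around which DNA is wound. The Hist1 cluster on chromosome 13 holds 54 of them, the Hist2 cluster on chromosome 3 holds 10, the Hist3 cluster on chromosome 11 holds 2 and the Hist4 locus on chromosome 6 holds 1. Their mRNAs are known to be made mainly during DNA replication and to end in a conserved stem-loop in place of a poly(A) tail. Stem-loop binding protein holds that end, and the mRNAs are degraded when replication stops. Some of these genes are also known to give longer, polyadenylated transcripts in cells that have left the cycle. The kit used here primes reverse transcription on poly(A), so the values below are levels of captured RNA and are not compared between members as amounts of RNA.

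Single epithelial cells of the mouse intestine were sorted by fluorescence-activated cell sorting and sequenced from the 3′ ends of their RNA. All mice carried Bmi1-GFP, a green fluorescent reporter allele at the Polycomb gene Bmi1. There was 1 library for each of 4 groups: embryos at day 12.5 of gestation (E12.5), embryos at day 17.5 (E17.5), adults and irradiated adults. The labels give no radiation dose, time after irradiation, number of animals or sort gate, so differences between libraries have no replicate check, and age, irradiation and library cannot be told apart.

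Cells with at least 500 genes and at most 20% mitochondrial UMIs (unique molecular identifiers, 1 for each captured molecule) were kept, which left 4226 E12.5, 4602 E17.5, 3788 adult and 3184 irradiated adult cells. Median UMIs per cell ran from 3699.5 in the adult to 18637.5 at E12.5, and libraries shared 1 to 7 barcodes of kept cells a pair. All 7 epithelial markers were detected in every library, with a summed level of 3626 to 11974 UMIs per 1000000 UMIs of the library (CPM). RNA of other cells was present too. Mesenchymal markers summed to 713 CPM and pancreatic acinar markers to 10934 CPM at E17.5, against at most 26.9 and 59.2 CPM in the other 3 libraries. Enteroendocrine markers summed to 80.9 CPM at E12.5 and to 3229, 12039 and 21718 CPM in the E17.5, adult and irradiated libraries. Paneth markers summed to 0.0674, 219, 49193 and 70516 CPM in the same order.

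The sequence that defines these mRNAs was read from the annotated transcripts (GENCODE M21, GRCm38), to which all 67 genes matched. The pattern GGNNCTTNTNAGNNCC, a 6-base stem, a 4-base loop and the second arm of the stem, was present in 46 of the 67, against 0.274% of 58725 other coding transcripts. The following 8 sites are shown because the results turn on these genes, with the 16 bases of the stem-loop in capitals and 5 bases on either side.
Hist1h1c: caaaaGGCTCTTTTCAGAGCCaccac
Hist1h2ae: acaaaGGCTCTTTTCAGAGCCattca
Hist1h2ab: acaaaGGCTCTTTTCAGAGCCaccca
Hist3h2a: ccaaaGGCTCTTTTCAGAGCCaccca
Hist3h2ba: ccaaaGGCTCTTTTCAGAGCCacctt
Hist1h3c: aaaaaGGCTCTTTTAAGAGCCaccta
Hist1h4d: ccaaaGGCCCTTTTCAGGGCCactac
Hist2h4: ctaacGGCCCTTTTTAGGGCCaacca
The stem differed by class. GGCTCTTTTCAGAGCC was the form in 26 members of the H1, H2A, H2B and H3 classes, and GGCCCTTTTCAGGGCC was found in 7 H4 genes. The annotated transcript ended within 100 bases after the stem-loop in 23 members, such as Hist1h2ab with 11 bases and Hist1h3c with 74. In 23 others it ran further, by 169 bases in Hist3h2ba, 770 in Hist1h4d, 840 in Hist1h1c, 1257 in Hist2h4 and 1643 in Hist3h2a. No match was found in the annotated transcripts of 21 members, Hist1h1b and Hist1h2bc among them. Many of these annotated transcripts are short, such as Hist1h4k with 312 bases and Hist1h2bl with 381, and may stop before the stem-loop. Others are long, such as Hist1h2bc with 1156 bases and Hist2h2be with 2620. A missing match therefore does not show that a gene lacks the stem-loop.

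The members are also alike in sequence. Of their last 400 bases, 37 members shared over 50% of all 50-base stretches with another member, and for 6 of them, Hist1h1e and Hist1h2ap included, every stretch was shared. The 3′ end of Hist1h1e overlaps the annotated Hist1h2be gene on the same strand. The split of reads between such copies is uncertain, so sums over a class are given first. Hist1h2bq and Hist1h2ba had 0 UMIs in all 4 libraries, and the other 65 had at least 1 UMI in at least 1 library.

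All classes but H2B stood highest at E12.5 and lowest in the irradiated adult. The 67 genes summed to 1204 CPM in the E12.5 library (95% exact Poisson interval 1196 to 1211). The sum was 845 CPM for E17.5 (839 to 852), 842 CPM for the adult (832 to 852) and 658 CPM for the irradiated adult (650.0 to 666). These intervals cover counting error only. H1 mRNA stood at 513, 229, 244 and 157 CPM in that order, and H2A mRNA at 273, 163, 104 and 51.5 CPM. H3 mRNA stood at 64.6, 45.9, 54.8 and 29.5 CPM and H4 mRNA at 117, 82.1, 101 and 51.3 CPM. H2B ran the other way, with 236, 325, 339 and 368 CPM, and made up 19.6%, 38.5%, 40.2% and 56.0% of histone UMIs. A single gene carried this: without Hist1h2bc the other 17 H2B genes stood at 192, 121, 44.2 and 37.6 CPM, in the same order as H2A.

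**Figure D1:**
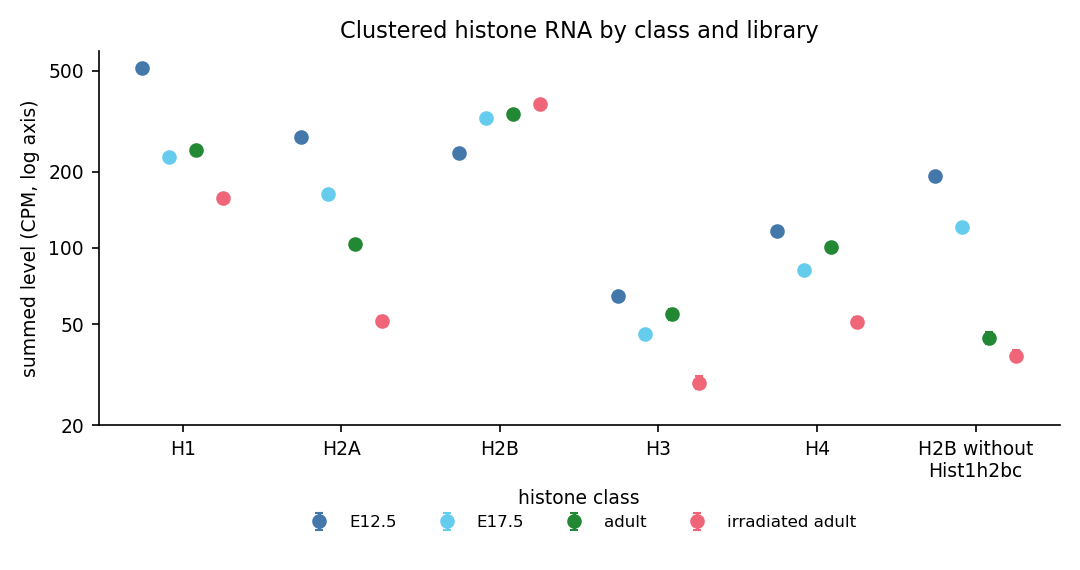
Summed level of each histone class in the 4 libraries, in CPM on a log axis, with exact Poisson 95% intervals (smaller than most points). H1, H2A, H3 and H4 are highest at E12.5 and lowest in the irradiated adult, whereas H2B is lowest at E12.5 unless Hist1h2bc is left out.

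The members of one class did not share one pattern. Among the linker histones, Hist1h1b (GRCm38 chr13:21779883-21780625, minus strand) stood at 280, 77.2, 48.5 and 3.41 CPM from E12.5 to the irradiated library. Hist1h1c (chr13:23738808-23740367, plus strand) had the opposite order, with 30.0, 60.8, 89.5 and 107 CPM. Hist1h1e stood at 137, 60.02, 81.6 and 35.6 CPM. No interval of Hist1h1b or of Hist1h1c overlapped between libraries.

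Of the H2A genes, Hist1h2ae (chr13:23570517-23571220, minus strand) stood at 94.7, 66.6, 28.7 and 3.70 CPM from E12.5 to the irradiated adult. Hist1h2ap was high at E12.5 alone, with 80.5 CPM against 3.38, 1.79 and 2.10 CPM in the other libraries. All 50-base stretches of its 3′ end are shared with another member. Hist3h2a (chr11:58954685-58956830, plus strand) kept a narrow range of 27.9 to 36.9 CPM.

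Of the H2B genes, Hist1h2bc (chr13:23684199-23692908, plus strand, 2 exons) stood at 44.4 CPM at E12.5 and 204, 295 and 331 CPM in the E17.5, adult and irradiated libraries. In the irradiated adult it made up 50.3% of all UMIs of the 67 genes. Hist3h2ba (chr11:58948920-58949533, plus strand), a member of the Hist3 cluster, stood at 129 and 66.8 CPM in the embryonic and at 8.99 and 16.1 CPM in the adult libraries. Hist1h2be stood at 5.16 to 10.8 CPM.

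Of the H3 genes, Hist1h3c stood at 17.5, 9.35, 6.55 and 0.435 CPM, Hist1h3e at 17.9, 8.10, 12.7 and 4.08 CPM and Hist1h3a at 7.69, 4.34, 12.3 and 4.93 CPM. Of the H4 genes, Hist1h4i stood at 52.4 and 48.5 CPM in the embryonic libraries and 16.7 and 15.5 CPM in the adult ones. Hist1h4d alternated, with 45.2, 14.5, 39.6 and 13.2 CPM, and Hist1h4h ranged from 5.51 to 9.496 CPM.

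**Figure D2:**
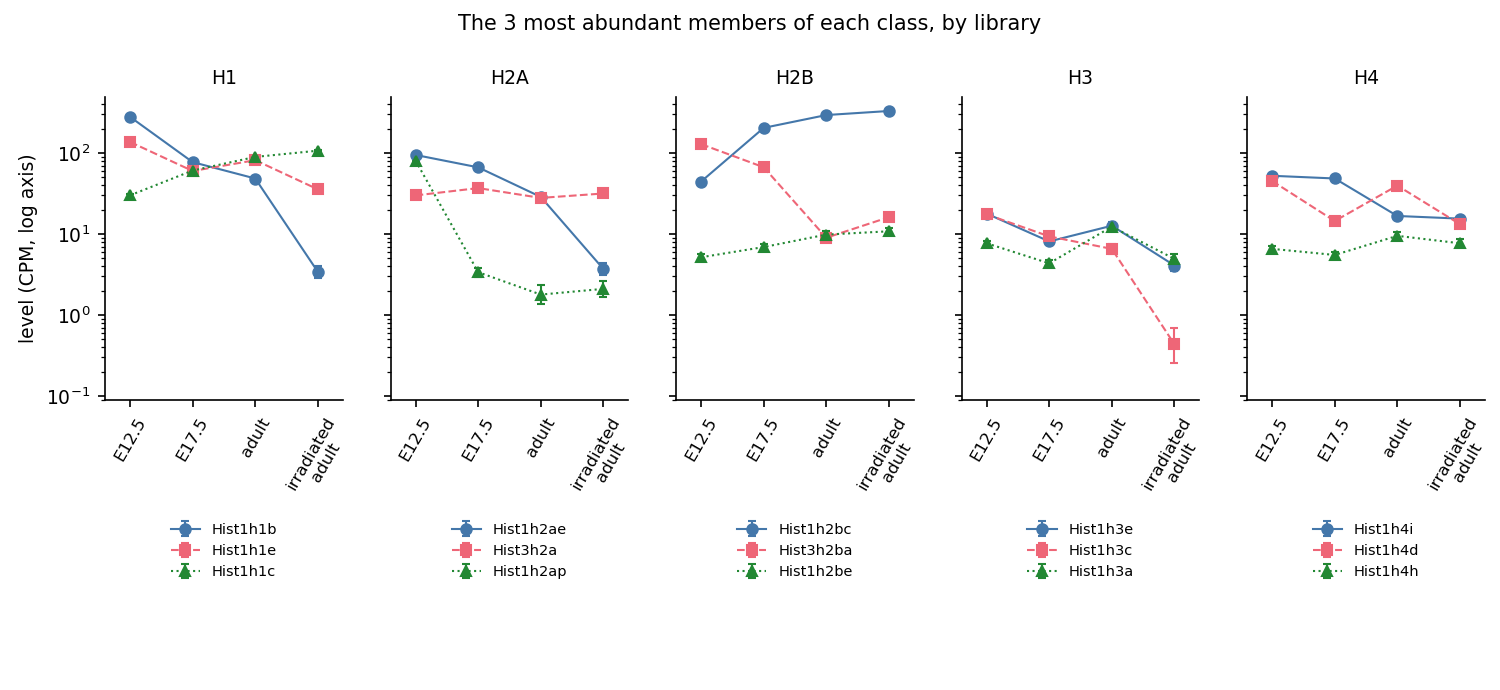
Level of the 3 members of each class with the highest mean over libraries, in CPM on a log axis, with exact Poisson 95% intervals. Lines join the points of a gene and carry no values between libraries. Hist1h1b and Hist1h2ae are lowest in the irradiated adult, and Hist1h2bc and Hist1h1c are highest there.

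Between libraries, a member was counted as higher or lower when its ratio of (CPM + 1) passed 2-fold, among genes with at least 20 UMIs in the higher library. From E12.5 to E17.5, 5 of 61 members were higher and 9 lower, beside 14.6% and 14.8% of all genes. The lowest log2 ratios were those of Hist1h2ap (-4.22), Hist1h1a (-1.89), Hist1h1b (-1.84) and Hist1h4d (-1.58), and the highest those of Hist1h2bc (2.18), Hist2h3c1 (1.61), Hist2h3c2 (1.47) and Hist1h2an (1.46). The members' median log2 ratio was -0.19 and that of all genes -0.15. The members' counts were at or under the shares over all genes. A sum over a library cannot tell fewer cells of a kind from less RNA per cell.

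From E17.5 to the adult, 4 of 58 members were higher and 10 lower, beside 13.1% and 13.8% of all genes. Hist3h2ba had the lowest log2 ratio (-2.76), followed by Hist1h4i (-1.48), Hist1h2bk (-1.30) and Hist1h2ae (-1.19). H4 genes led the other side, with Hist1h4c (1.90), Hist2h4 (1.45) and Hist1h4d (1.39), and so did the H3 gene Hist1h3a (1.32). The histone sum had a log2 ratio of -0.0051, which was 0.15 as a mean over cells and 0.066 without the endocrine-gated cells described below.

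From the adult to the irradiated adult, 21 of 52 members were lower and 1 higher, beside 4.94% and 2.84% of all genes. The lower ones were 3 of 5 H1, 6 of 13 H2A, 3 of 12 H2B, 6 of 12 H3 and 3 of 10 H4 genes. Hist1h2ab had 411 UMIs in the adult and 9 in the irradiated library, a log2 ratio of -3.51. Hist1h1b (-3.49), Hist1h2ae (-2.66) and Hist1h2ag (-2.41) came next, and Hist2h3c2 was the gene past 2-fold on the other side (1.08). The members' median log2 ratio was -0.79, against -0.04 over all genes. The count of lower members ran from 5 with a pseudocount of 10 CPM to 33 with 0.1 CPM. Genes of replicating cells moved with it: the 17 genes of a fixed S phase list summed to 362 CPM in the adult and 130 CPM in the irradiated library, and the 15 genes of a G2/M list to 404 and 104 CPM. Markers of other cell types moved as well: goblet markers summed to 3309 and 18805 CPM, tuft markers to 2758 and 1348 CPM and enterocyte markers to 7177 and 2340 CPM. Their part in the difference was not tested.

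To ask how the histone genes vary with the cycle, each cell was thinned to 2000 UMIs and called positive for S phase with at least 3 UMIs of the S phase list (replication genes such as Mcm2 and Pcna) and for G2/M with at least 3 UMIs of the G2/M list (mitosis genes such as Ccnb1 and Plk1). No histone gene is in either list. At E12.5, 1124 cells were in S only, 1244 in S and G2/M, 765 in G2/M only and 522 in neither. At E17.5 these were 368, 425, 742 and 2877 cells, in the adult 61, 21, 61 and 2959, and in the irradiated adult 14, 7, 18 and 2640. These states are ranges of a count, not cell types: 624 E12.5, 306 E17.5, 39 adult and 15 irradiated adult cells held exactly 3 UMIs of the S phase list, and 647, 506, 127 and 46 held 1 fewer. UMIs were summed per library and state, and the states were compared over the libraries with edgeR's quasi-likelihood test, with library as a term.

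Many histone genes were higher in cycling cells, and a few were lower. In S only against neither, 21 of 58 members were called higher and 4 lower (edgeR, adjusted p under 0.05), beside 14.1% and 13.9% of all genes. Many cells in neither state were endocrine- or tuft-gated, so the comparison was repeated outside those gates, a choice made after seeing the data. There 19 of 55 members were higher and 1 lower, beside 8.09% and 5.91% of all genes. The calls, of members as of all genes, depended on the E17.5 and adult libraries and on the gate. Without E17.5, edgeR called 0 members in either direction in both versions, with 18 and 15 members at an unadjusted p under 0.05. Of all genes it then called 3 higher and 54 lower of 14463 in all cells, and 37 and 77 of 13471 outside the gates. Without the adult library, 4 members were higher and 1 lower in all cells, and 1 was higher outside the gates. All genes then gave 63 higher and 211 lower of 15443 in all cells, and 77 and 64 of 14339 outside the gates. With cells thinned to 1000 UMIs or the gate at 5 UMIs, edgeR called 0 members over all cells, with 24 and 28 at an unadjusted p under 0.05. All genes gave 2 higher and 81 lower of 15542, and 12 and 154 of 15699. The members' median log2 fold change over all cells was 1.01. It was 0.58 without E17.5, 0.57 at 1000 UMIs and 0.79 with the gate at 5 UMIs.

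Cells positive for both lists were then compared with those in neither, in a contrast added after seeing the data. Over all cells 36 of 58 members rose and 4 fell, beside 11.9% and 12.9% of all genes, with a median log2 fold change of 1.67. Without E17.5 edgeR called 0 members higher and 1 lower, beside 31 and 64 of 14463 genes. Without the adult library it called 14 higher and 1 lower, beside 281 and 341 of 15443. With cells thinned to 1000 UMIs it called 0 members in either direction, beside 0 and 14 of 15542 genes. With the gate at 5 UMIs it called 0 higher and 1 lower, beside 5 and 46 of 15699. At these settings 28 and 29 members had an unadjusted p under 0.05. Outside the endocrine and tuft gates, 41 of 55 members rose and 2 fell, beside 8.71% and 8.30% of all genes. The members' median log2 fold change there was 1.75. By class, 4 of 5 H1, 11 of 13 H2A, 13 of 16 H2B, 7 of 12 H3 and 6 of 9 H4 genes rose. This contrast has sums from 3 libraries only, since the irradiated adult held under 10 such cells. Without E17.5, 8 members rose and 1 fell, beside 145 and 68 of 13471 genes. Without the adult library 24 rose and 1 fell, beside 414 and 310 of 14339. Leaving out mesenchymal- and acinar-gated cells as well gave 37 that rose and 2 that fell here, beside 908 and 1389 of 13703 genes. In S only against neither it gave 19 higher and 3 lower, beside 947 and 1123 of 13703 genes. G2/M only against neither gave 32 higher and 1 lower of 55 members, beside 8.22% and 8.27% of all genes. Without E17.5 that count was 3 higher and 1 lower, beside 189 and 195 of 13471 genes. Without the adult library it was 12 higher and 0 lower, beside 330 and 198 of 14339. Over all cells it was 33 higher and 2 lower of 58, beside 15.8% and 18.0% of all genes. It fell to 1 and 1 with cells thinned to 1000 UMIs, beside 183 and 439 of 15542 genes. With the gate at 5 UMIs it fell to 3 and 1, beside 168 and 335 of 15699.

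Outside those gates Hist1h1b, a linker histone, stood at 357 CPM in S and G2/M cells and 139 CPM in neither at E12.5, at 199 and 17.2 CPM at E17.5, and at 370 and 26.0 CPM in the adult. Its log2 fold change was 2.81 ± 0.50 (SE, edgeR adjusted p = 0.0025). In every one of these 3 libraries the cycling value was the higher one. Hist1h2ae, an H2A gene, stood at 120 against 45.8 CPM, 149 against 23.5 CPM and 132 against 19.4 CPM in the same order (log2 fold change 2.12 ± 0.24, edgeR adjusted p = 9.1e-05). Hist1h1e gave 170 against 82.4 CPM, 112 against 32.9 CPM and 175 against 31.1 CPM (1.59 ± 0.16, edgeR adjusted p = 5.5e-05). Hist1h4d, an H4 gene, gave 55.2 against 25.01 CPM, 31.5 against 5.25 CPM and 94.7 against 14.1 CPM (1.80 ± 0.28, edgeR adjusted p = 0.00096). The highest log2 fold changes were those of Hist1h2af (2.82), Hist1h1b, Hist1h2an (2.81), Hist1h2ab (2.44) and Hist1h3b (2.43).

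Hist1h2bc went the other way. Outside the gates it stood at 32.1 CPM in S and G2/M cells and 78.6 CPM in neither at E12.5, at 88.7 and 189 CPM at E17.5, and at 63.1 and 135 CPM in the adult. It fell by 1.38 on the log2 scale (SE 0.17, edgeR adjusted p = 0.0002). Hist3h2ba, the other member that fell, stood at 111 against 173 CPM, 16.1 against 32.5 CPM and 1.13 against 3.01 CPM (-0.84 ± 0.24, edgeR adjusted p = 0.031). The adult S and G2/M sum held at most 21 cells and 887137 UMIs, so its 1.13 CPM rests on very few counts. Over all cells, S only against neither also called Hist3h2a (-1.12 ± 0.21, edgeR adjusted p = 0.0059) and Hist1h1c (-0.96 ± 0.33, edgeR adjusted p = 0.048) lower. Those 2 genes were not called outside the gates, where Hist1h1c stood at 27.9 CPM in S only and 21.8 CPM in neither at E12.5, 35.6 and 48.2 CPM at E17.5, and 25.1 and 19.7 CPM in the adult.

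**Figure D3:**
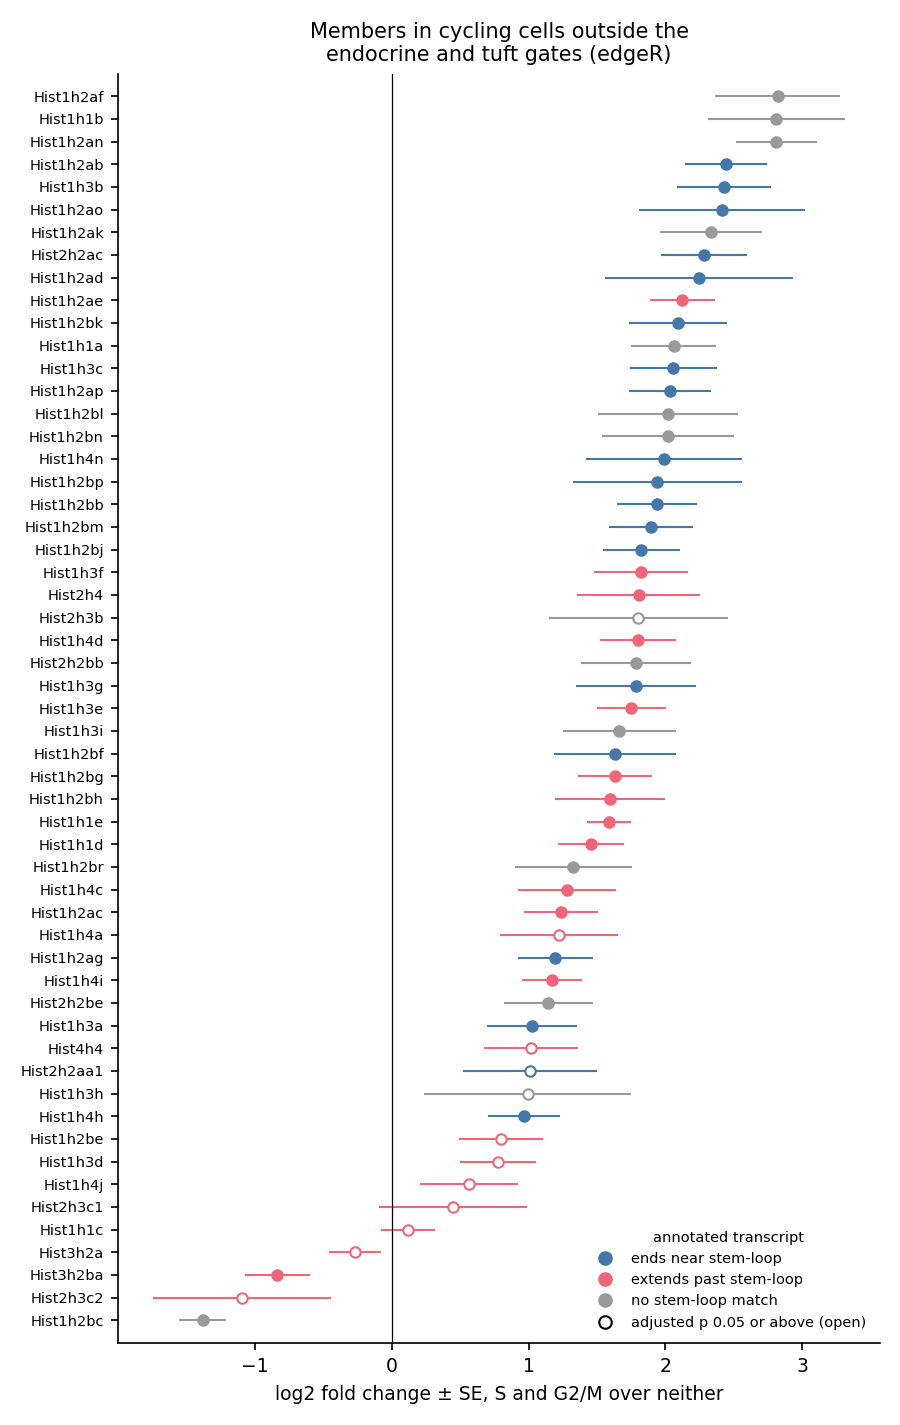
Log2 fold change of each tested member in cells positive for the S and G2/M lists over cells in neither, outside the endocrine and tuft gates, with its standard error (edgeR). Colour gives where the annotated transcript ends, and filled points have an adjusted p under 0.05. Hist1h2bc and Hist3h2ba are the filled points to the left of 0, and 41 filled points lie to the right.

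The members were also split by where the annotated transcript ends. Of those that end near the stem-loop, 18 of 19 rose and 0 fell, with a median log2 fold change of 1.94. Of those with a longer transcript, 12 of 22 rose and 1 fell, with a median of 1.23. Of those with no match, 11 of 14 rose and 1 fell, with a median of 1.91. These groups were not tested against each other.

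No member was called between S phase and G2/M cells. In S only against G2/M only, 0 of 58 members were called higher and 0 lower by edgeR, beside 0.00% and 0.0409% of all genes, and DESeq2 called 0. At an unadjusted p under 0.05, edgeR had 4 members. Outside the endocrine and tuft gates 0 of 55 were called either way, beside 0.108% and 0.556% of all genes, and 7 had an unadjusted p under 0.05. Over all cells, the members' median log2 fold change was -0.35, and 10 of 58 were positive. S and G2/M over G2/M only gave 0 members in either direction, beside 0.00% of all genes each way, with a median of 0.30. DESeq2 called 0 there as well, and 2 members had an unadjusted p under 0.05 in edgeR.

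Depth moved with these states. In the adult library the median UMIs per cell were 4461 in neither, 20501 in S only and 42698 in S and G2/M. Adult cells in neither that were outside the endocrine and tuft gates had a median of 15755. The part of depth in the calls was not tested, though all cells entered the gates at the same thinned depth.

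The histone genes were also compared between cell classes outside the cycle, which here means below both cycle thresholds. Cells in neither state were called endocrine-gated with at least 10 UMIs of a list of 12 hormone-cell genes (Chga, which encodes a granule protein, and Neurod1, a transcription factor of these cells, among them), tuft-gated with at least 5 UMIs of 12 tuft genes (Dclk1 and Trpm5 among them) and other with neither. At E17.5 this gave 1480 endocrine-gated, 1 tuft-gated and 1396 other cells, in the adult 1747, 924 and 221, and in the irradiated adult 1951, 240 and 219. E12.5, with 11 endocrine-gated and 0 tuft-gated cells, was left out of the tests of these classes. Cells over both gates, 67 in the adult library and 230 in the irradiated one, were left out. The gates are ranges: 147, 82 and 93 endocrine-gated cells in those libraries lay within 3 UMIs of the threshold. The median count of tuft-list UMIs in endocrine-gated cells was 0, and that of endocrine-list UMIs in tuft-gated cells was 1 in the adult library and 2 in the irradiated one.

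The summed histone level was higher in gated classes than in other cells of the same library from E17.5 on, leaving aside the 1 tuft-gated cell at E17.5. Endocrine-gated cells had 1171 CPM at E17.5 and 842 and 819 CPM in the adult libraries. Tuft-gated cells had 1153 CPM in the adult and 795 CPM in the irradiated adult. Other cells had 490, 364 and 230 CPM from E17.5 on. H2B made up 804 CPM of the endocrine-gated sum at E17.5, 394 CPM in the adult and 468 CPM in the irradiated adult. Every class had the higher value in the gated cells, but in the adult the H2A intervals of gated and other cells overlapped. At E12.5 the 11 endocrine-gated cells had 1027 CPM (891 to 1178) and the 511 other cells 847 CPM (828 to 866). That excess lay in H2B alone, with 649 against 290 CPM. H1 (186 against 282 CPM), H2A (95.6 against 160 CPM) and H3 (25.2 against 43.3 CPM) were lower, and H4 stood at 70.5 against 72.5 CPM. The S phase list stood at 247 CPM in the E12.5 endocrine-gated and 1441 CPM in the E12.5 other cells. The G2/M list stood at 95.6 and 693 CPM there, and the part of both lists in these differences was not tested. Paneth genes, with a summed level of 193840 CPM in the adult and 236425 CPM in the irradiated adult, were a large part of the RNA in these other cells, and their part in the difference was not tested.

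Between endocrine-gated and other cells, 9 of 45 members were called higher and 4 lower (edgeR, adjusted p under 0.05), beside 23.3% and 20.3% of all genes. The counts of members were below these shares, and the members' median log2 fold change was -0.15. The 9 were 1 H1, 1 H2A, 4 H2B, 2 H3 and 1 H4 gene. Hist3h2ba stood at 291 CPM in endocrine-gated and 32.5 CPM in other cells at E17.5, at 17.2 and 3.01 CPM in the adult and at 24.1 and 2.22 CPM in the irradiated adult (log2 fold change 2.46 ± 0.27, edgeR adjusted p = 0.00056). The endocrine-gated value was the higher one in all 3 libraries. Hist1h1c stood at 136 against 48.2 CPM, 150 against 19.7 CPM and 148 against 22.3 CPM (1.69 ± 0.24, edgeR adjusted p = 0.0015). Its level in endocrine-gated cells thus spanned 136 to 150 CPM over the 3 libraries. Hist2h3c1, an H3 gene, stood at 11.8 against 1.86 CPM, 9.13 against 1.15 CPM and 11.95 against 1.95 CPM (2.06 ± 0.37, edgeR adjusted p = 0.0038). Hist2h3c2 (1.65), Hist2h4 (1.53), Hist2h2be (1.33), Hist3h2a (1.29), Hist1h2be (1.14) and Hist1h2bc (0.78) were the others that rose.

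The 4 that fell in endocrine-gated cells were Hist1h2ag (-2.55 ± 0.80, edgeR adjusted p = 0.035), Hist1h3c (-2.41 ± 0.51, edgeR adjusted p = 0.0074), Hist1h2ab (-1.61 ± 0.47, edgeR adjusted p = 0.027) and Hist1h2ae (-1.11 ± 0.34, edgeR adjusted p = 0.031). The S phase list, although every cell here lay below its threshold, still summed to 155 CPM in endocrine-gated and 536 CPM in other cells at E17.5, to 127 and 374 CPM in adult cells and to 90.5 and 77.8 CPM in irradiated ones. Its part in these calls was not tested. Without the adult library 4 members were called higher and 0 lower, beside 1412 and 1591 of 15018 genes. The counts were 9 and 1 without E17.5, beside 2846 and 2382 of 13175 genes, and 5 and 7 without the irradiated adult. Outside the mesenchymal and acinar gates the counts were 9 and 4 of 44, beside 3333 and 2776 of 14060 genes. Under a stricter cell filter they were 6 and 6 of 42, beside 2531 and 2388 of 13807 genes.

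In tuft-gated against other cells, a contrast added after seeing the data, 16 of 45 members rose and 0 fell, beside 18.4% and 19.0% of all genes. The members' median log2 fold change was 0.92. The 16 were 3 of 5 H1, 1 of 10 H2A, 4 of 12 H2B, 3 of 9 H3 and 5 of 9 H4 genes. Hist2h4 (chr3:96261682-96263311, minus strand) stood at 12.4 CPM in tuft-gated and 0.717 CPM in other cells of the adult, and at 11.0 and 0.556 CPM in the irradiated adult (3.53 ± 0.44, edgeR adjusted p = 0.0011). Hist1h4c gave 29.5 against 4.16 CPM and 15.1 against 0.741 CPM (2.84 ± 0.35, edgeR adjusted p = 0.00099). Hist4h4 gave 27.2 against 2.30 CPM and 16.3 against 1.02 CPM (2.91 ± 0.41, edgeR adjusted p = 0.0018). In both adult libraries these H4 genes were higher in tuft-gated than in other cells. Hist1h1a, a linker histone, stood at 42.1 against 4.73 CPM and 26.7 against 1.20 CPM (2.79 ± 0.57, edgeR adjusted p = 0.0079), and Hist2h2be rose by a log2 fold change of 2.87. Under a stricter cell filter 8 of 42 members were called higher and 0 lower, beside 1323 and 1300 of 13807 genes. The members' median log2 fold change was 0.79 without the adult library. The tuft-gated arm then has the irradiated sum alone, so calls from that fit are not given.

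Members whose annotated transcript runs past the stem-loop by more than 100 bases made up 7 of the 9 and 11 of the 16 that rose. The other 2 of the 9, Hist2h2be (2620 bases) and Hist1h2bc (1156 bases), have no match but long annotated transcripts. Of all genes, 23.3% rose and 20.3% fell in endocrine-gated cells, and 18.4% and 19.0% in tuft-gated cells. Of members that run past the stem-loop, 7 of 22 rose and 1 fell in endocrine-gated cells (median log2 fold change 0.43). In tuft-gated cells 11 of 22 rose (median 1.13). Of those that end near it, 0 of 14 rose and 3 fell in endocrine-gated cells (median -1.37), and 2 of 14 rose in tuft-gated cells (median -0.34). Of those with no match, 2 of 9 rose in endocrine-gated cells (median -0.41) and 3 of 9 in tuft-gated cells (median 1.00). These groups were not tested against each other. Where the RNA molecules themselves ended was not measured.

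**Figure D4:**
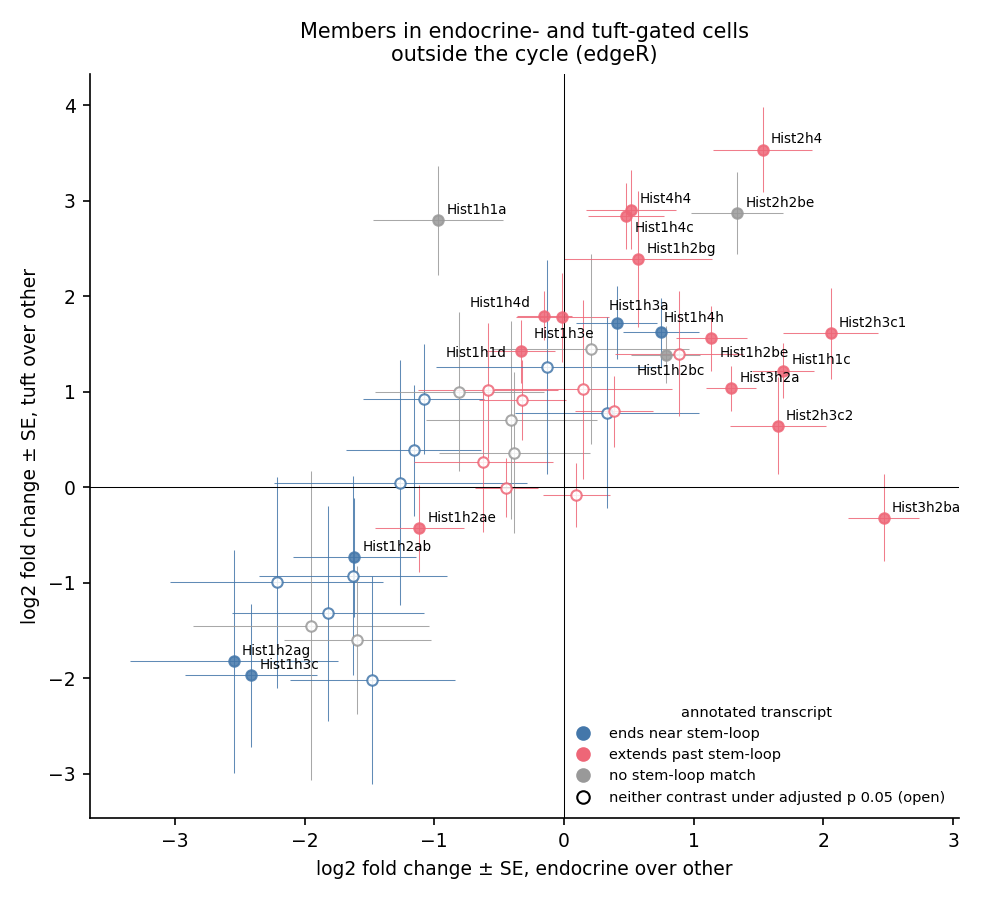
Log2 fold change of each tested member in tuft-gated over other cells (vertical axis) against that in endocrine-gated over other cells (horizontal axis), outside the cycle, with standard errors (edgeR). Colour gives where the annotated transcript ends. Both axes share the same other cells, so the slope of the cloud is not a result. Hist3h2ba lies far right near 0 on the vertical axis, and Hist2h4, Hist4h4 and Hist1h4c lie near the top.

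Within one gate, the irradiated and the adult library could be compared without the cells that passed a cycle threshold. In endocrine-gated cells 11 of 32 members were lower past 2-fold and 0 higher, beside 2.67% and 2.33% of all genes. Hist1h1b stood at 11.7 CPM (9.85 to 13.7) in the adult and 1.56 CPM (1.10 to 2.17) in the irradiated adult, a log2 ratio of -2.30. Hist1h2ab (-1.93), Hist1h3f (-1.40), Hist1h4c (-1.36) and Hist1h1e (-1.02) were lower too. Hist1h1c, with 150 and 148 CPM, and Hist1h2bc, with 352 and 419 CPM, were not past 2-fold. In tuft-gated cells 6 of 25 members were lower and 0 higher, beside 2.51% and 3.63% of all genes. There Hist1h1b had 52 UMIs in the adult (10.9 CPM) and 0 in the irradiated adult, which allows up to 2.14 CPM (95% exact Poisson limit). In other cells 12 of 23 members were lower and 0 higher, beside 15.9% and 5.37% of all genes.

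Other lists moved within the gates as well. In endocrine-gated cells the S phase list stood at 127 and 90.5 CPM in the adult and irradiated libraries, the G2/M list at 52.5 and 27.4 CPM, and the Paneth list at 3048 and 14521 CPM. In tuft-gated cells the S phase list stood at 94.4 and 63.9 CPM and the G2/M list at 50.05 and 22.6 CPM. In other cells the S phase list stood at 374 and 77.8 CPM and the G2/M list at 263 and 60.2 CPM. Over all kept adult cells these lists stood at 362 and 404 CPM. Their part in the lower histone levels was not tested. Without endocrine-gated cells, the histone sum over all kept cells had a log2 ratio of -1.23 between these libraries, against -0.36 with them. At that setting 32 members were lower past 2-fold. All genes moved as well: their median log2 ratio was -0.42 without endocrine-gated cells, against -0.04 with them.

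**Figure D5:**
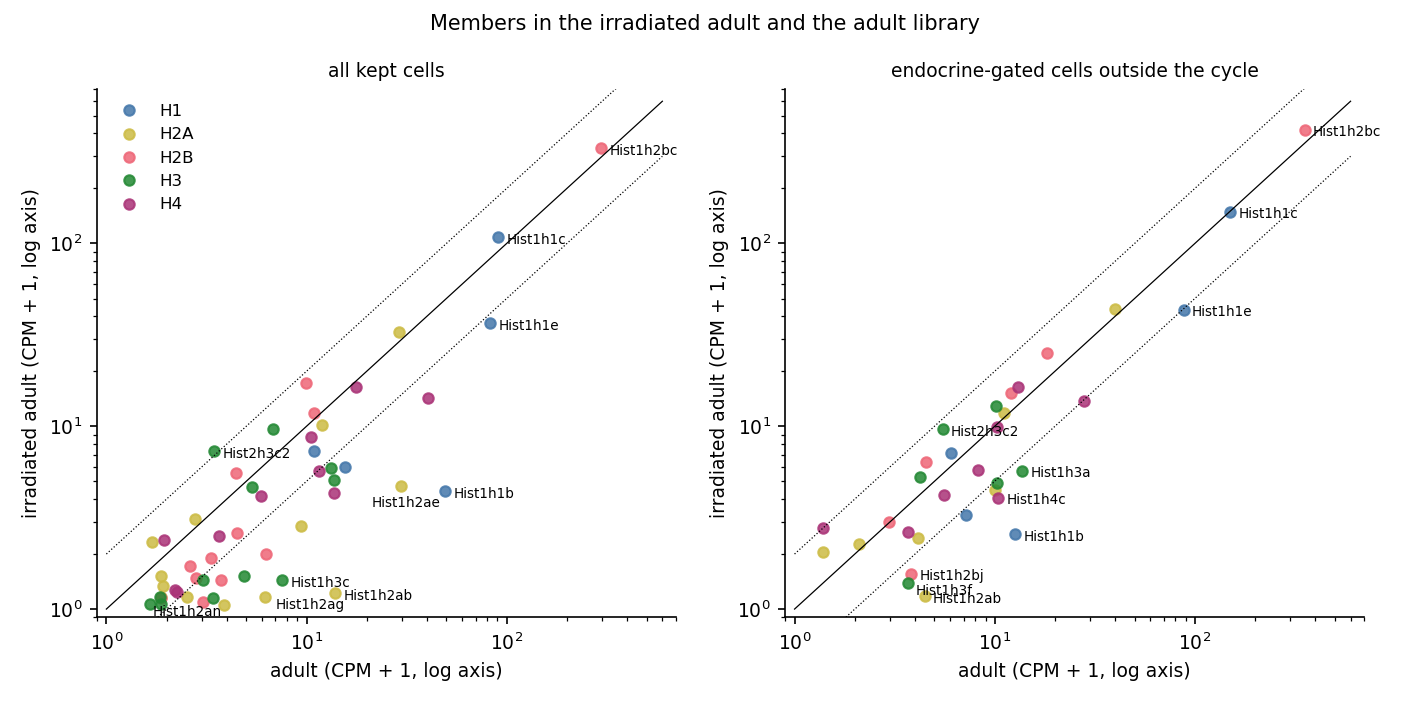
Level of each tested member in the irradiated adult against the adult library, as (CPM + 1) on log axes, over all kept cells (left) and in endocrine-gated cells outside the cycle (right). The solid line marks equal levels and the dotted lines 2-fold. On the left 21 points lie below the lower dotted line and on the right 11, while Hist1h2bc and Hist1h1c lie near the solid line in both.

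The same gate was compared between E17.5 and the adult. In endocrine-gated cells 13 of 29 members were higher in the adult and 3 lower, beside 11.6% and 11.2% of all genes. Hist1h4d stood at 3.66 and 26.9 CPM (log2 ratio 2.58), Hist1h1a at 0.326 and 6.22 CPM (2.45), Hist1h3a had a log2 ratio of 2.18 and Hist1h3e of 2.00. The 3 lower ones were Hist3h2ba, with 291 and 17.2 CPM, Hist3h2a (-1.23) and Hist1h4i (-1.13). Both members of the Hist3 cluster were thus lower in the adult endocrine-gated cells. The histone sum in these cells was lower in the adult, with a log2 ratio of -0.48, while more single members were higher. The Paneth list in them went from 89.8 to 3048 CPM, and its part in these differences was not tested. In other cells outside the cycle 3 of 39 members were higher and 5 lower, beside 4.06% and 27.6% of all genes. From E12.5 to E17.5 other cells had 4 of 44 members higher and 16 lower, beside 16.3% and 22.5% of all genes. These other cells still held RNA of cycle genes. The S phase list stood at 1441, 536 and 374 CPM in them at E12.5, at E17.5 and in the adult. The G2/M list stood at 693, 415 and 263 CPM in the same order. The part of both lists in these counts was not tested.

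Divergent neighbours could be read against each other. Of the 67 genes, 13 pairs are transcribed away from each other with start sites within 1000 bases. Hist1h2ac and Hist1h2bc have annotated starts 251 bases apart. In S and G2/M against neither, over all cells, Hist1h2ac rose by a log2 fold change of 1.13 and Hist1h2bc fell by 1.84. From E12.5 to E17.5 their log2 ratios were -0.29 and 2.18. Hist2h2ac and Hist2h2be, 239 bases apart on chromosome 3, had 2.64 and 0.48 in the cycle contrast and -1.08 and 1.33 in endocrine-gated over other cells. Hist1h2ae and Hist1h2bg, 176 bases apart, had 2.58 and 1.23 in the cycle contrast, and -0.43 and 2.39 in tuft-gated over other cells. In each of these 3 pairs, chosen after their values were seen, the H2B gene had the lower value in the cycle contrast. Over the 9 pairs of an H2A and an H2B gene with both values in that contrast, the H2B value was the lower one in 7 and the higher one in 2, which were Hist1h2bj (2.15) beside Hist1h2ag (1.90) and Hist1h2bk (2.68) beside Hist1h2ah (2.62).

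The RefSeq promoter window of Hist1h2ac (GRCm38.p6, chr13:23683910-23684209, minus strand, 250 bases before to 50 after the start) reaches across the annotated start of Hist1h2bc and is shown for that reason, with motif matches on either strand in capitals.
Hist1h2ac: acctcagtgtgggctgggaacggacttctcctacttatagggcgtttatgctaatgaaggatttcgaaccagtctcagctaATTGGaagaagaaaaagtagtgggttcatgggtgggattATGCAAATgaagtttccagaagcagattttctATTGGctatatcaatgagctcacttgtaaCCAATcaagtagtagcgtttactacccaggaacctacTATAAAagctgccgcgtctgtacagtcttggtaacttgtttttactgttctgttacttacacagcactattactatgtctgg
The motifs searched were the CCAAT box (CCAAT), the TATA box (TATAAA) and the octamer ATTTGCAT, each on both strands, and this window held all 3. Of 61 members with an entry, CCAAT was present in 6 of 6 H1, 17 of 17 H2A, 16 of 16 H2B, 10 of 10 H3 and 3 of 12 H4 windows, against 37.4% of 32851 windows of all genes. The octamer was present in 7 of 17 H2A and 6 of 16 H2B windows and in 0 of the H1, H3 and H4 windows, against 1.74% of all. TATAAA was present in 4 of 6 H1, 11 of 17 H2A, 8 of 16 H2B, 4 of 10 H3 and 8 of 12 H4 windows, against 13.6%. The windows of divergent H2A and H2B neighbours overlap, so a single site can count for both genes. Their counts are therefore not separate observations. A match describes the letters and shows no binding.

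Genes that make, process and load these histones were followed in the same contrasts. Of 14 genes for the synthesis and processing of histone mRNA, 8 rose and 0 fell in S only against neither, beside 14.1% and 13.9% of all genes. Slbp, which encodes stem-loop binding protein, rose by a log2 fold change of 1.08 ± 0.20 (edgeR adjusted p = 0.0056), Eri1, an exonuclease that trims histone mRNA ends, by 1.14 and Lsm11, a part of the U7 particle that cuts them, by 0.98. Slbp stood at 185, 105, 57.1 and 37.6 CPM from E12.5 to the irradiated adult. Of 18 histone chaperones and their partners, 12 rose and 0 fell, with Asf1b at 2.98, Chaf1b at 2.37, Chaf1a at 2.24 and Hat1 at 2.11. These calls too depended on single libraries. Without E17.5 edgeR called 0 genes of either list, with 7 and 10 at an unadjusted p under 0.05, and without the adult library 0 and 1, with 9 and 12. Of all genes those fits called 3 higher and 54 lower of 14463, and 63 and 211 of 15443. In endocrine-gated over other cells 8 of the 18 fell and 1, Atrx (0.74), rose, beside 20.3% and 23.3% of all genes, and Asf1b had the lowest value (-3.44). Without the adult library 3 of the 18 fell and 0 rose, beside 1591 and 1412 of 15018 genes. Nasp, a chaperone of soluble histones, stood at 718, 155, 61.0 and 30.3 CPM over the libraries.

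Most histone genes outside the clusters are known to be made throughout the cycle, while Cenpa is known to be made mainly in G2 and H2afx to give a replication-dependent mRNA as well. Of 11, 4 rose and 0 fell in S only against neither: Cenpa, the centromeric H3 (1.34), H2afx (1.13), H2afz (1.04) and H2afy (0.56). Without E17.5 or without the adult library edgeR called 0 of them, with 5 and 4 at an unadjusted p under 0.05. Those fits called few of all genes, as given above. In endocrine-gated over other cells 2 rose and 5 fell, beside 23.3% and 20.3% of all genes, with H1fx, a linker histone, at 2.53 and H2afy2 at 1.93 on one side and Cenpa at -1.63 and H2afv at -1.29 on the other. In tuft-gated over other cells H2afj (2.09) and H1fx (1.89) rose, and H2afy2 (-2.86) and H2afz (-0.91) fell, so 2 of 11 each way beside 18.4% and 19.0% of all genes. The tuft-gated shares are near the background. The 5 of 11 that fell in endocrine-gated cells are above the 20.3% of all genes. That count was 2 without E17.5, beside 2382 of 13175 genes, and 2 without the adult library, beside 1591 of 15018 genes. H2afz stood at 2646, 2028, 630 and 420 CPM over the 4 libraries.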

How the data were processed

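The deposited files are raw UMI counts per gene and cell barcode for 4 libraries, made by the authors with Cell Ranger 3.1.0 on mm10, per the submitters' processing notes. The annotation release is not given in the sources used here. The members and gene lists were chosen with earlier results of these data known. UMIs were summed over kept cells and divided by all UMIs of those cells to give CPM, with exact Poisson 95% intervals (scipy 1.17.1). With 1 library per group, libraries were compared without a test, by the ratio of (CPM + 1). For cell states and gates, cells were thinned to 2000 UMIs. Shallower cells (571 E12.5, 190 E17.5, 686 adult and 505 irradiated) were left out there. UMIs of at least 10 cells were summed per library and state (per library and gate without E12.5) and tested with edgeR 4.0.16 (quasi-likelihood, library as a term, Benjamini-Hochberg over all genes, 0.05), without the genes that define the gates. The cycle fit had 15 sums and 8 residual degrees of freedom, and the class fit 8 and 3. The p-values measure the spread between library sums, which nothing in the labels ties to separate animals. On simulated counts of the S only against neither contrast (14525 genes), 71.4% of 2-fold and 100% of 4-fold increases, 50% of 2-fold and 91.3% of 4-fold decreases and 0.0419% of unchanged genes were called. The simulation gave every gene the same dispersion and held no differences between libraries, so these rates need not hold for the real fit. Doublets were not removed, except in an alternative without the highest Scrublet scores. The alternatives tried also changed the cell filter, the scaling, the pseudocount, the gates, the thinning depth and the tool (DESeq2 1.42.0) and left out each library.

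The text names the 3 members of each class with the highest mean CPM. It names up to 5 members a side in a tested contrast and up to 4 in a comparison of libraries by log2 value, and up to 4 genes of each fixed list. Genes named beyond that rule were chosen after their values were seen.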

Additional observations from a re-analysis of the deposited data

How the results depend on the processing

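The log2 ratio of the histone sum from E12.5 to E17.5 (-0.51) was -0.39 with TMM factors, -0.53 without mitochondrial and ribosomal protein genes, -0.36 as a mean of each cell's CPM and -0.62 without endocrine-gated cells, a choice made after seeing the data. From E17.5 to the adult (-0.0051) it was -0.035 over every barcode, -0.11 under a stricter cell filter, -0.13 without mitochondrial and ribosomal protein genes, 0.15 as a mean over cells and 0.066 without endocrine-gated cells, so its sign is not fixed. From the adult to the irradiated adult (-0.36) it was -0.32 under the stricter filter, -0.29 with TMM, -0.43 without mitochondrial and ribosomal protein genes, -0.26 as a mean over cells and -1.23 without endocrine-gated cells. The median of all genes shifted by -0.11 from E17.5 to the adult without mitochondrial and ribosomal protein genes, and by -0.18 without endocrine-gated cells. From the adult to the irradiated adult it shifted by -0.38 without endocrine-gated cells. Members past 2-fold from E12.5 to E17.5 numbered 15 lower as a mean over cells, 13 higher and 14 lower with a pseudocount of 0.1, and 1 and 5 with 10. From E17.5 to the adult they were 2 higher under the stricter filter, 13 higher as a mean over cells, 4 lower without endocrine-gated cells, and 1 higher and 2 lower with a pseudocount of 10. From the adult to the irradiated adult 0 were higher over every barcode, under the stricter filter, without endocrine-gated cells and with a pseudocount of 10, and 2 as a mean over cells, while 32 were lower without endocrine-gated cells, 33 with a pseudocount of 0.1 and 5 with 10. In S only against neither, edgeR called 0 members in either direction with cells thinned to 1000 UMIs or the gate at 5 UMIs (24 and 28 at an unadjusted p under 0.05), 10 higher and 2 lower under the stricter filter, and 1 lower outside the endocrine and tuft gates. Leaving out 1 library gave 0 to 23 higher and 0 to 6 lower, the lowest without E17.5. In S only against G2/M only 1 member was lower at 4000 UMIs, and in endocrine over other, leaving out 1 library gave 4 to 9 higher and 0 to 7 lower. The contrasts of S and G2/M and of G2/M only with neither lost nearly all member calls at the same thinning depth and gate, as given beside them. Calls over all genes fell at these settings too. Under the stricter filter, S only against neither gave 483 higher and 489 lower of 15496 genes. The cause was not tested. No paired analysis was possible because each group has 1 library and the labels give no replicate numbers. This concerns comparisons between libraries, since the fits of states and gates compare sums of the same libraries with library as a term. The smallest sum in the cycle fit over all cells held 14 cells (S only, irradiated adult), members under the count filter were not tested, and intervals cover counting error only.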

Other observations

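Endocrine- and tuft-gated cells also differed from each other in these genes, in a contrast added after seeing the data. In endocrine over tuft, 1 of 45 members was called higher and 11 lower (edgeR, adjusted p under 0.05), beside 18.5% and 16.9% of all genes, with a median log2 fold change of -0.88. Hist3h2ba was the higher one (2.79 ± 0.41, edgeR adjusted p = 0.0018). It stood at 17.2 CPM in endocrine-gated and 1.68 CPM in tuft-gated cells of the adult, and at 24.1 and 4.06 CPM in the irradiated adult. Hist1h1a had the lowest value (-3.76 ± 0.52, edgeR adjusted p = 0.0013), with 6.22 against 42.1 CPM in the adult and 2.26 against 26.7 CPM in the irradiated adult. Hist4h4 (-2.39), Hist1h4c (-2.36), Hist2h2ac (-2.00) and Hist2h4 (-2.00) came next. Under a stricter cell filter 1 member was higher and 6 were lower of 42, beside 1454 and 1380 of 13807 genes. The members' median log2 fold change was -0.78 without the adult library, where the tuft-gated arm has the irradiated sum alone.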
